A study of Mus musculus with 6 samples.

Results

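The genes of cholesterol and fatty acid synthesis were followed in the E13.5 mouse testis, from a study that compared testes with and without Dmrt1. The set was a list of 30 genes, and each gene was represented by 1 probe set with exactly 1 gene symbol, the one with the highest mean log2 intensity over the 6 arrays. 29 of the 30 genes were measured in this way, among 11874 genes tested in all. Acat2, a thiolase that joins acetyl-CoA units, was not analysed here. All 29 had a mean log2 intensity above the minimum of 4 used for testing, the lowest being 6.29 for Tm7sf2.

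The arrays held RNA of 3 controls and 3 Dmrt1 nulls, all on a cross to 129S6/SvEvTac, and the labels name each a biological replicate. The gene Dmrt1 encodes a DM domain transcription factor of Sertoli cells and germ cells, and the series asks what its loss changes in a strain where mutants often form teratomas. The titles call the controls wild type, but their descriptions, their genotype entries and the series design give Dmrt1 (+/-). The null samples are Dmrt1 (-,-) by title and design, while their genotype entry reads Dmrt(flox/flox), and no Cre driver is named. Dmrt1 itself was at intensities of 696, 1030 and 796 in the controls and at 48.4, 26.9 and 23.8 in the nulls, with replicates 1, 2 and 3 given in that order here and throughout. The groups did not overlap at this gene, and every null was far below every control. Sertoli markers such as Sox9 and Wt1, the germ cell marker Ddx4 and the Leydig marker Cyp17a1 were all detected, and of the ovarian markers Foxl2 was at 7.61 to 10.1, below the array medians of 14.6 to 14.8, while Wnt4, Fst and Rspo1 were above them, from 113 to 853. For Actb, signal near the 3' end over signal near the 5' end, a sign of RNA length, was highest in null replicate 3, at 2.75, and elsewhere 1.91 to 2.15.

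Cholesterol is built from acetyl-CoA in the mevalonate pathway, which yields farnesyl diphosphate, and then by the condensation of that product to squalene, the closure of its rings to lanosterol and a series of steps that turn lanosterol into cholesterol. Most of these enzymes are under the control of SREBP transcription factors, which the escort protein Scap carries out of the endoplasmic reticulum when sterols are low and which Insig proteins hold back when sterols are plentiful. SREBP-1 is best known for fatty acid genes and SREBP-2 for cholesterol genes. In the fetal testis, Leydig cells turn cholesterol into androgens, and dividing cells of any kind need sterols for their membranes.

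No gene of the set was called as different between null and control testes. Limma gave 0 of 29 at a Benjamini-Hochberg adjusted p of 0.05, with adjusted p from 0.773 to 0.996, against 0.0505% of all genes tested and 0.0272% of all probe sets tested (6 called in each). At an unadjusted limma p of 0.05, 2 of the 29 passed (6.90%), against 6.44% of all genes tested. These 2 were Fasn and Scap, which were also the only genes of the set whose control and null arrays did not overlap. Both were higher in the null, which is 6.90% of the set against 7.8% of all genes tested, and 0 of 29 lay wholly lower in the null, against 5.32%. The shares that passed or lay wholly higher were near the background. The differences of null minus control on the log2 scale ran from -0.30 for Stard4 to 0.36 for Srebf1, with 15 genes higher and 14 lower, where 43.7% of all genes tested were lower, and a median of 0.0032, beside a median of 0.025 over all genes tested.

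The larger pattern lay among arrays of the same group. The enzymes from mevalonate to cholesterol went up and down together from testis to testis, high in control replicate 2 and null replicate 1 and low in control replicate 1 and null replicates 2 and 3. In 15 of the 16 measured enzymes, control replicate 2 and null replicate 1 were the highest of the 6 arrays, which was so for 16.7% of all genes tested, ties not counted. All 16 were higher in null replicate 1 than in either other null and lower in control replicate 1 than in either other control, against 42.2% and 40.8% of all genes tested. The controls ran in the order replicate 2, 3, 1 in 15 of the 16 enzymes, against 26.2% of all genes. These counts describe the arrays and were not tested. The sample names in the descriptions of control replicate 3 and null replicate 2 share a number, whose meaning the labels do not give, and between these arrays all 16 enzymes were lower in the null, as were 25 of the 29 genes and 52.95% of all genes tested. In null replicate 3, the array with the highest Actb ratio, the enzymes were near null replicate 2, and without it the median difference of the 29 genes was 0.062.

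**Figure D1:**
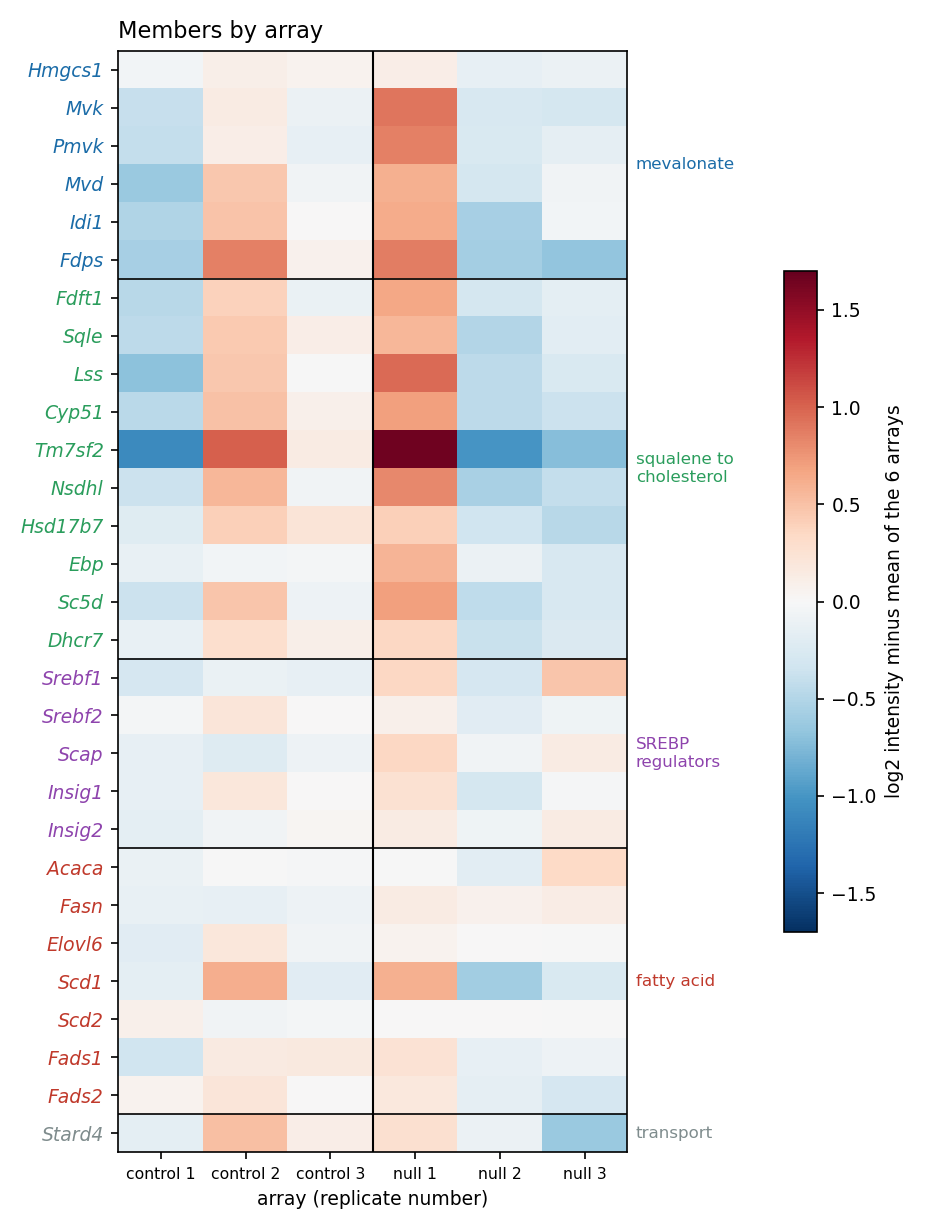
Each row is 1 gene and each column 1 array, and the colour gives the deviation of log2 intensity from the gene's mean over the 6 arrays. Rows of the mevalonate and squalene-to-cholesterol enzymes are warm in control replicate 2 and null replicate 1, where they were highest in 15 of 16 genes, while most rows of fatty acid genes are pale.

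The spread within groups was accordingly wide for these enzymes. The standard deviation between arrays of one group was a median of 0.52 on the log2 scale over the 16 enzymes, beside 0.15 over the 9338 genes tested whose mean log2 intensity was at least that of the dimmest gene of the set. It was 0.15 over the 5 SREBP regulators and 0.18 over the 7 fatty acid genes. The highest array exceeded the lowest by a median of 2.26-fold over the 16 enzymes and by 1.39-fold over all genes tested. Only 4 of the 29 differences between groups were larger than the within-group standard deviation of the same gene, whereas 35.2% of all genes tested had such a difference.

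**Figure D2:**
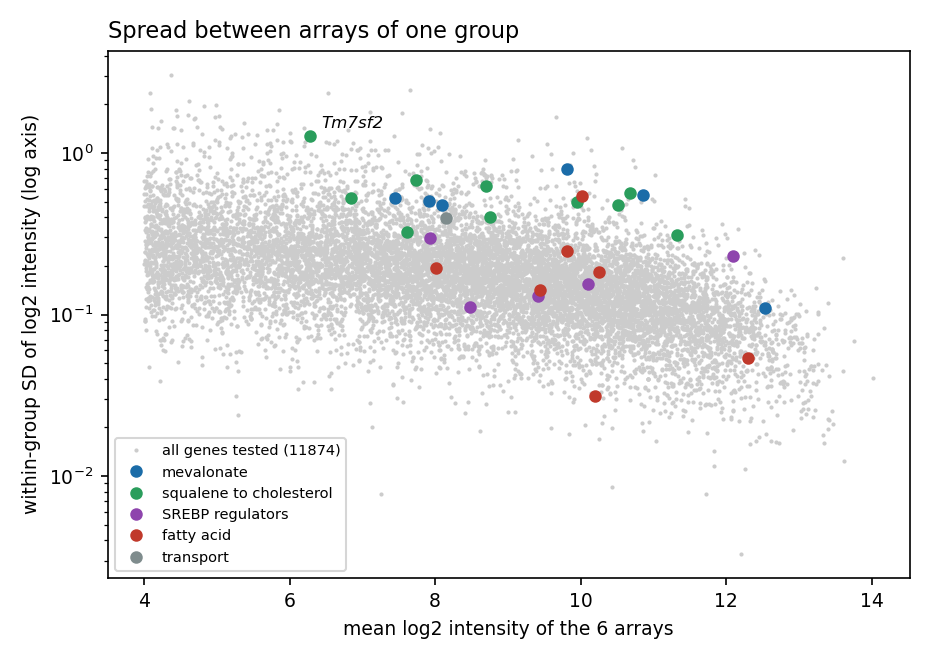
Each point is 1 gene, with its mean log2 intensity on the horizontal axis and the standard deviation of log2 intensity between arrays of one group on a log axis. Most enzymes of cholesterol synthesis lie along the upper edge of the grey cloud of 11874 genes, with Tm7sf2 at 1.27, and Fasn lies near the lower edge at 0.031.

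The mevalonate pathway had 6 measured genes, with 4 differences above 0, 2 below and a median of 0.085 on the log2 scale. Pmvk, phosphomevalonate kinase, gave intensities of 206, 295 and 248 in the controls and of 496, 228 and 245 in the nulls. Null replicate 1 stood above every other array, and the other nulls lay among the controls. Its log2 difference of 0.29 (standard error 0.30, n = 3 per group, limma adjusted p = 0.852) was -0.064 without null replicate 1. Mvk, mevalonate kinase, showed the same picture, with 133, 192 and 163 in the controls and 327, 144 and 141 in the nulls. A dimmer Mvk probe set had a difference of -0.011 where the one used here had 0.22. Hmgcs1, the synthase that makes HMG-CoA, had the narrowest range of the pathway, at 5750, 6360 and 6210 in the controls and 6430, 5410 and 5550 in the nulls. Null replicate 1 was again the highest and the groups overlapped, with a difference of -0.078 (standard error 0.074, limma adjusted p = 0.838). 3 other Hmgcs1 probe sets differed by -0.051, -0.087 and -0.22, and in each the same pair of arrays was highest.

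Fdps, which makes farnesyl diphosphate, had the widest range of the mevalonate genes and was at 604, 1630 and 943 in the controls and at 1640, 603 and 564 in the nulls. A pair of arrays, 1 of each group, thus stood together far above the rest, and the log2 difference of -0.25 had a standard error of 0.47. It was -0.74 without null replicate 1 and 0.13 without control replicate 2. Mvd, the decarboxylase that precedes isopentenyl diphosphate, and Idi1, the isomerase that follows, had differences of 0.15 and 0.016, and both were highest in those arrays. Their other probe sets gave 0.065 and -0.16. The median of the mevalonate genes was -0.16 without null replicate 1 and 0.32 without null replicate 2.

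The enzymes from squalene to cholesterol numbered 10, with 3 differences above 0, 7 below and a median of -0.062. Tm7sf2, a sterol reductase that acts after lanosterol, varied most, with 36.8, 158 and 86.1 in the controls and 245, 39.0 and 47.2 in the nulls. The level in null replicate 1 was 5.68 times the mean of the other nulls, and control replicate 2 was 4.29 times control replicate 1. Against that spread its difference was -0.050, with a 95% confidence interval from -1.78 to 1.68. Nsdhl, which takes part in removing methyl groups from the sterol ring, was at 323, 617 and 400 in the controls and 734, 285 and 316 in the nulls. Cyp51, the demethylase of lanosterol, was at 1190, 2310 and 1740 in the controls and 2670, 1210 and 1270 in the nulls. Both repeated the order of Tm7sf2, with null replicate 1 highest and control replicate 2 next, and with differences of -0.090 and -0.074.

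The same order held at the head of this branch. Fdft1, squalene synthase, gave 1050, 1910 and 1350 in the controls and 2290, 1190 and 1300 in the nulls. Sqle, squalene epoxidase, gave 728, 1350 and 1070 in the controls and 1460, 698 and 873 in the nulls. Lss, which closes the rings to lanosterol, gave 131, 291 and 211 in the controls and 415, 156 and 177 in the nulls. In each of them the highest null exceeded every control while the lowest null lay close to the lowest control. Their differences were 0.13, -0.080 and 0.17, and another Lss probe set gave -0.32, opposite in sign.

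Hsd17b7 and Dhcr7 had the smallest unadjusted p of the branch. Hsd17b7, a keto-sterol reductase, was at 374, 575 and 505 in the controls and at 571, 341 and 312 in the nulls. Null replicates 2 and 3 lay below all controls and null replicate 1 did not, which gave a difference of -0.28 (standard error 0.25, n = 3 per group, limma adjusted p = 0.830). The other tested Hsd17b7 probe set gave -0.45, and there control replicate 3 and null replicate 1 were equal at 45.7. Dhcr7, which completes cholesterol, was at 2350, 3130 and 2750 in the controls and at 3280, 1970 and 2170 in the nulls. Its arrays fell in the same way, with a difference of -0.18 (standard error 0.19, limma adjusted p = 0.863). Sc5d, a desaturase, was at -0.0084 and followed the common order. Its other tested probe set gave -0.36, and there control replicate 3 at 59.2 stood above null replicate 1 at 56.5. Ebp, a sterol isomerase, was the 1 enzyme of the 16 whose probe set used here did not follow the common order. Its control replicate 3 at 191 stood slightly above control replicate 2 at 189. Without null replicate 1 the median of the 10 enzymes was -0.39, and without null replicate 2 it was 0.18.

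Because these enzymes moved together, the sequences around their start sites are shown for 4 of them and for Fasn, which did not follow the same order. Of the 30 genes, 23 had an entry by symbol. The entries are from RefSeq on GRCm38.p6 and span 250 bases before to 50 bases after the annotated start. They are written 5' to 3' on the strand of the gene, with capitals for matches to CCAAT on either strand (read as ATTGG when on the opposite strand) and to TCACNCCAC, a sterol regulatory element, on either strand. Hmgcs1 (chr13:119690101-119690400, plus strand) is shown as the only gene with an entry in the set that has a match to TCACNCCAC. Mvk (chr5:114444019-114444318, plus strand) and Nsdhl (chrX:72918271-72918570, plus strand) hold 5 and 4 matches to CCAAT, and Tm7sf2 (chr19:6067801-6068100, minus strand) varied most. Fasn (chr11:120824498-120824797, minus strand) has 3 matches, of which 1 pair overlaps.
Hmgcs1: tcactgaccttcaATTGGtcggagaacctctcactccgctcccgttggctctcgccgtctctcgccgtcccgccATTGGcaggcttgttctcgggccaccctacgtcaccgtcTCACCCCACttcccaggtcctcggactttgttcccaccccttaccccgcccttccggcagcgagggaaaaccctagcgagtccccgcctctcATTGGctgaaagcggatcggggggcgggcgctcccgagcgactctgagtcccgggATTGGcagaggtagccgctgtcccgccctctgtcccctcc
Mvk: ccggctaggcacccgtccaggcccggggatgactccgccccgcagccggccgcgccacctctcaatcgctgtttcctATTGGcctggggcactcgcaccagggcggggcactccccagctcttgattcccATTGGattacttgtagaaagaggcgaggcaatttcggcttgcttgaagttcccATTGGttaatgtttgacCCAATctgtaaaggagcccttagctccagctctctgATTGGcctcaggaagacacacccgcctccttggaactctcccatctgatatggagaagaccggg
Nsdhl: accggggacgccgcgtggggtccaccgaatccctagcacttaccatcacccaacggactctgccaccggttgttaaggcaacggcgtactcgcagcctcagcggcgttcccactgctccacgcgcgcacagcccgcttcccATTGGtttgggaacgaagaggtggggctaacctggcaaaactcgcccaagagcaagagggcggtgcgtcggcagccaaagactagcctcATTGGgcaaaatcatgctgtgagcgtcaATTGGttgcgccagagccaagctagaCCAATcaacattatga
Tm7sf2: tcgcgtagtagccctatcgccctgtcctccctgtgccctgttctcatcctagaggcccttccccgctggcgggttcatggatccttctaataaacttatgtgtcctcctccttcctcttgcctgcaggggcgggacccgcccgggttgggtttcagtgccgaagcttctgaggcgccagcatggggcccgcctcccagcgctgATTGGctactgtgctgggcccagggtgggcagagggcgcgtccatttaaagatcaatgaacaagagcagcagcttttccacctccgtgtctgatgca
Fasn: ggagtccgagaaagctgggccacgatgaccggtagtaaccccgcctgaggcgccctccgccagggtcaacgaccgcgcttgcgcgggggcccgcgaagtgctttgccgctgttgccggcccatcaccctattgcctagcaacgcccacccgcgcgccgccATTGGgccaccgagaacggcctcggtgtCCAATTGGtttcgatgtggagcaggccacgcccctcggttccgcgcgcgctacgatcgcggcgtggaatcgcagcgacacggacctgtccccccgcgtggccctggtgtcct
In Hmgcs1 the match TCACCCCAC begins at position -137 from the start. CCAAT on either strand was found in 13 of 14 enzymes of the mevalonate and cholesterol pathways with an entry, Acat2 being the other. This count takes a gene as matched if any of its windows holds CCAAT. No such share by gene was taken over all genes, so the count has no background beside it. Over the set, 19 of 31 windows held CCAAT (61.3%), beside 37.4% of all 32851 windows in the table. CACGTG, the E-box, was in 6 of the 31 windows (19.4%) and in 7.15% of all windows, and TCACNCCAC in 1 of 31 and in 1.24% of all. CCAAT is the box bound by NF-Y, a factor known to act beside SREBPs, and a match here describes letters only. Some genes have several annotated starts, and the arrays do not tell which was in use.

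The regulators of the pathway varied less, and control replicate 2 and null replicate 1 were the highest arrays in 2 of 5, Insig1 and Srebf2. Scap, the escort of SREBPs, was at 995, 946 and 1040 in the controls and at 1410, 1060 and 1210 in the nulls. Every null lay above every control, although null replicate 2 exceeded control replicate 3 by little. The null was 1.23-fold higher (95% confidence interval 1.02 to 1.48), with a log2 difference of 0.30, a standard error of 0.12 and a limma adjusted p of 0.773. The difference was 0.19 without null replicate 1 and 0.40 without null replicate 2.

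Srebf1, which encodes SREBP-1, was at 201, 225 and 221 in the controls and at 313, 200 and 340 in the nulls. Null replicates 1 and 3 stood above the controls and null replicate 2 below them, for a difference of 0.36 (standard error 0.21, n = 3 per group, limma adjusted p = 0.774). Without null replicate 3 the difference was 0.22, and without null replicate 2 it was 0.60. Srebf2, which encodes SREBP-2, stayed between 600 and 785 in all arrays, with a difference of -0.12. Its other probe set gave -0.20, and there control replicate 3 at 323 stood above null replicate 1 at 305. Insig1, itself a target of SREBPs, was highest in null replicate 1 at 5240 and control replicate 2 at 5030, like the enzymes, and lowest in null replicate 2 at 3560. Insig2 lay between 318 and 394 with a difference of 0.13, while its other tested probe sets gave -0.036 and -0.047. Stard4, a carrier of sterols in the cytosol, was at 254, 404 and 307 in the controls and at 343, 265 and 184 in the nulls. The groups overlapped, and its difference of -0.30 (standard error 0.26, limma adjusted p = 0.823) was -0.067 without null replicate 3 and -0.52 without null replicate 1. Its other probe sets gave 0.093 and -0.18.

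The 7 fatty acid genes had 5 differences above 0, 2 below and a median of 0.015. Fasn, the fatty acid synthase, was at 1080, 1070 and 1110 in the controls and at 1300, 1240 and 1280 in the nulls. The groups were tight and well separated, and control replicate 2 did not stand out. Fasn was 1.17-fold higher in the null (95% confidence interval 1.04 to 1.33), with a log2 difference of 0.23, a standard error of 0.077 and an unadjusted p of 0.018 in limma, which became 0.773 after adjustment over all probe sets. With single arrays left out the difference stayed between 0.21 and 0.25. Acaca, the carboxylase that supplies its malonyl-CoA, was at 238, 256 and 255 in the controls and at 256, 228 and 328 in the nulls. The nulls lay on both sides of the controls, with a difference of 0.10 that was -0.047 without null replicate 3.

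The desaturases did not act as 1 group. Scd1 was at 917, 1580 and 907 in the controls and at 1570, 686 and 860 in the nulls, with a difference of -0.17. Its highest 2 arrays were those of the cholesterol enzymes, but its lowest control was replicate 3 and not replicate 1. Scd2, a related desaturase of the same chemistry, was nearly flat, between 4870 and 5360, with a difference of 0.0032 and a 95% confidence interval from -0.12 to 0.12. The other Scd2 probe sets gave -0.28 and -0.45, and the mean over its probe sets gave -0.24. Fads2, a desaturase of polyunsaturated fatty acids, was at 1270, 1410 and 1230 in the controls and at 1380, 1100 and 1000 in the nulls. Null replicates 2 and 3 lay below the controls and null replicate 1 among them, for a difference of -0.18 (standard error 0.13, n = 3 per group, limma adjusted p = 0.802). Fads1, its partner, was lowest in control replicate 1 at 717 and highest in null replicate 1 at 1070, with a difference of 0.015. Elovl6, an elongase, ranged from 607 to 795 with a difference of 0.041, while its other tested probe set gave -0.17. Control replicate 2 and null replicate 1 were the highest arrays in 3 of the 7 fatty acid genes (42.9%), which were Scd1, Fads2 and Elovl6.

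**Figure D3:**
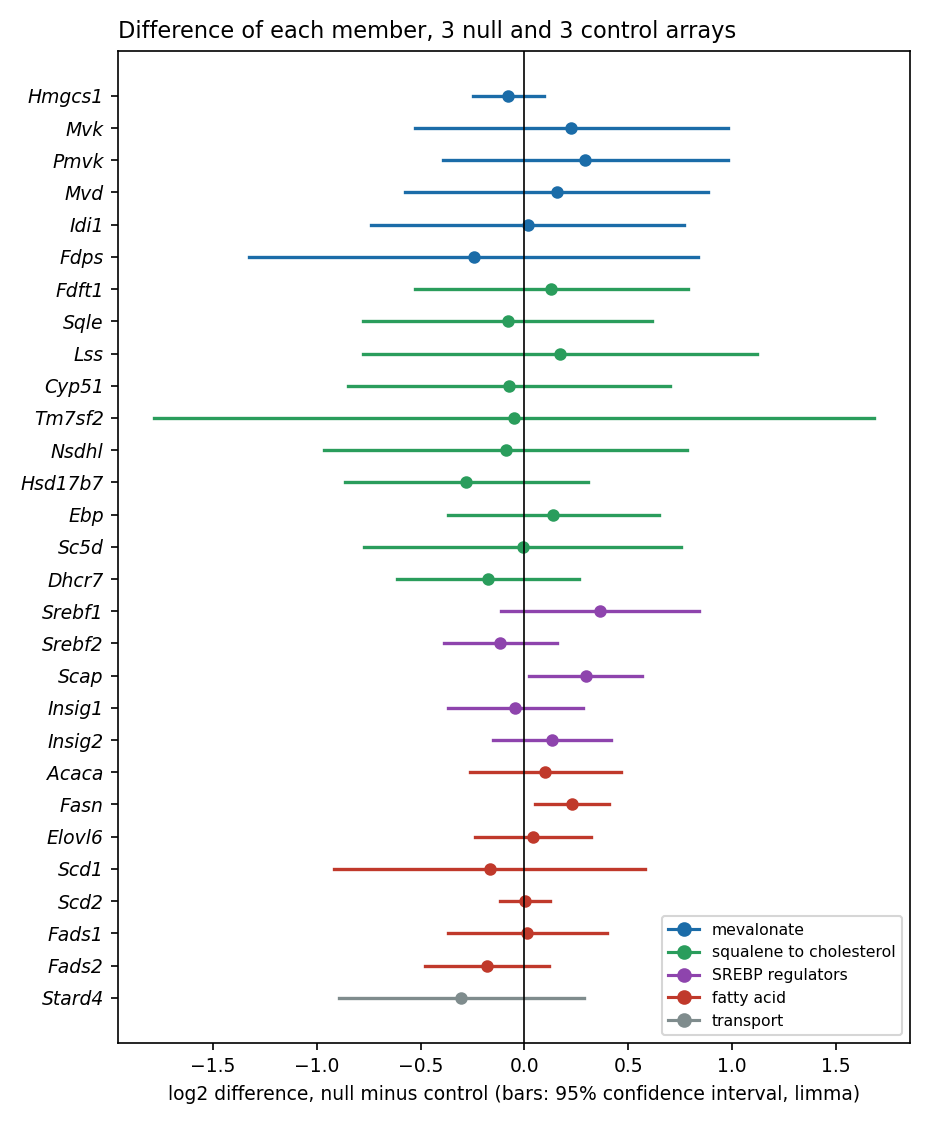
Points give the log2 difference of null minus control for each gene, and bars its 95% confidence interval in limma, with 3 arrays per group. Most intervals span 0, that of Scd2 is narrow at -0.12 to 0.12, that of Tm7sf2 is wide at -1.78 to 1.68, and those of Scap and Fasn lie just above 0 before adjustment.

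The intervals show what 3 arrays per group could resolve. For 11 of the 29 genes the 95% interval lay within 1.5-fold in both directions, and for 3, Fdps, Lss and Tm7sf2, it reached 2-fold in at least 1 direction. The other tested probe sets of these genes numbered 24, over 16 genes, with differences from -0.45 to 0.093, and 11 of them had the opposite sign to the probe set used. Of the 13 that belong to the cholesterol enzymes, 11 were highest in control replicate 2 and null replicate 1.

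Other genes of sterol and fatty acid metabolism did not share the pattern as a group. Of 47 measured genes on a related list, limma called 0 at an adjusted p of 0.05 and 2 passed at an unadjusted p of 0.05, with 19 higher, 28 lower and a median of -0.031. The smallest p belonged to Hacd1, a dehydratase of fatty acid elongation, at 0.39 (limma adjusted p = 0.773), and to Mylip, a ubiquitin ligase for lipoprotein receptors, at -0.44 (limma adjusted p = 0.773). Control replicate 2 and null replicate 1 were the highest arrays in 9 of the 47 (19.1%), near the 16.7% of all genes. Msmo1, a further enzyme between lanosterol and cholesterol, was among these 9, at 1430, 3310 and 2380 in the controls and at 3740, 1320 and 1460 in the nulls.

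Markers of testis cell types also differed between arrays of one group, and are given beside the enzymes. The level of a list is the median, over its genes, of the deviation of log2 intensity from each gene's own mean. For the 16 enzymes it was -0.43, 0.45 and -0.0036 in the controls and 0.68, -0.41 and -0.27 in the nulls. For the 5 measured of 7 fetal Leydig markers it was -0.67, 0.74 and 0.69 in the controls and 1.04, -0.50 and -1.32 in the nulls. Arrays high in Leydig markers thus included those high in the enzymes, but control replicate 3 was high in the former and near the mean in the latter, and control replicate 2 and null replicate 1 were the highest arrays in only 1 of the 5, Star. Star, which moves cholesterol into mitochondria for steroid synthesis, was at 609, 1870 and 1750 in the controls and 3020, 625 and 433 in the nulls. The summed intensity of the Leydig list ran from 4802 to 11155 in controls and from 4374 to 14040 in nulls. Cyp17a1, Cyp11a1, Hsd3b1 and Star were each highest in null replicate 1 and, among controls, lowest in control replicate 1. Nr5a1 did not follow, at 778, 566 and 835 in the controls and 1090, 884 and 1170 in the nulls. Every null of Nr5a1 thus lay above every control, as for 7.8% of all genes tested. In whole testis RNA, fewer cells of a type and less RNA per cell cannot be told apart.

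For 6 measured of 7 germ cell markers the level was 0.91 in control replicate 2 and -0.46 to 0.12 in the other arrays. Control replicate 2 and null replicate 1 were the highest arrays in 4 of the 6 (66.7%), namely Ddx4, Dazl, Dnd1 and Mael. The summed intensity of all 6 germ cell markers ran from 6235 to 10638 in controls and from 5723 to 7404 in nulls. The level of the 8 Sertoli markers stayed between -0.086 and 0.050, while some single markers varied more. Sox9 ran from 298 in null replicate 1 to 877 in control replicate 1. Fgf9 ran from 57.3 to 121 and was the 1 of the 8 with control replicate 2 and null replicate 1 highest. Aard lay wholly lower in the null and Ptgds wholly higher, as did 5.32% and 7.8% of all genes tested. Endothelial markers, all 5 measured, were low in control replicate 2 at -0.73 and null replicate 1 at -0.51 and between 0.24 and 0.43 elsewhere, with sums of 547 to 1251 in controls and 698 to 1278 in nulls. Erythroid markers, 4 of 5 measured, were also lowest in control replicate 2, at -1.10, and next in null replicate 1, at -0.25. Of 4 hepatocyte markers, Alb at 5.65 to 33.3, Afp at 14.5 to 233 and Ttr at 5.85 to 18.9 were highest in control replicate 2, and Apoa1 at 14.5 to 23.3 was highest in null replicate 3. The adipocyte markers Adipoq and Cidec stayed at 4.22 to 5.42, below the array medians, whereas Fabp4 ran from 179 in control replicate 2 to 685 in control replicate 3. Of the adrenal markers, Cyp11b1 at 4.46 to 18.4 and Cyp21a1 at 13.9 to 28.9 were highest in null replicate 1, and Mc2r was highest in control replicate 1 at 247 and lowest in control replicate 2 at 119. Levels lay between -0.26 and 0.47 for the 5 macrophage markers, -0.46 and 0.54 for ovarian, -0.26 and 0.32 for mesonephros and duct and -0.092 and 0.058 for interstitial markers, with 3 genes measured in each of the last 3 lists. The pair of control replicate 2 and null replicate 1 was highest in 2 of the 3 ovarian markers, Fst and Rspo1, in 1 of 3 of each of the other 2 and in 0 of 5 macrophage markers. The macrophage markers Adgre1 and Mrc1 lay wholly lower in the null, as did 5.32% of all genes tested. Differences were below 0 for all 5 macrophage, all 6 germ cell and all 3 mesonephros and duct markers, and for 43.7% of all genes tested. They were above 0 for all 4 erythroid markers. Limma called 0 in each of these lists. The part of these cell types in the levels of the enzymes was not tested.

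**Figure D4:**
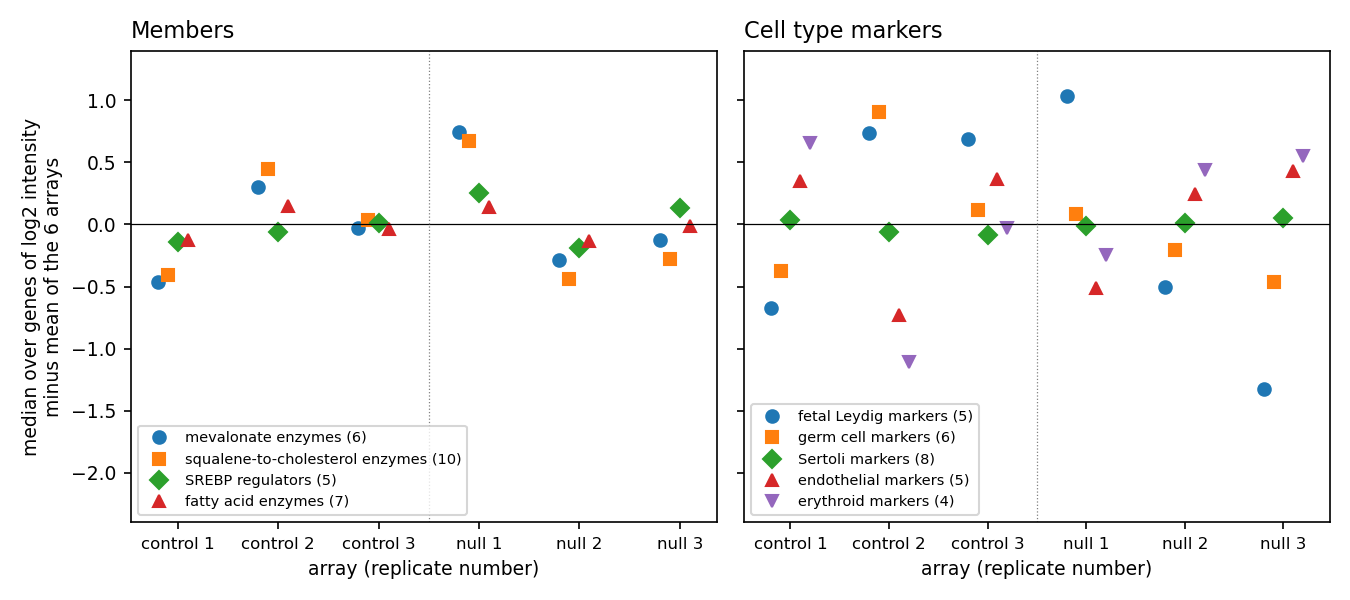
Points give, for each array, the median over a list of the deviation from each gene's mean log2 intensity, for gene groups of the set at left and cell type markers at right, with the number of genes in brackets. Cholesterol enzymes are high in control replicate 2 and null replicate 1, fetal Leydig markers in these and in control replicate 3, germ cell markers are highest in control replicate 2 at 0.91, and endothelial and erythroid markers are low in control replicate 2.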

How the data were processed

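Gonads were dissected at E13.5 and their total RNA was amplified and biotin-labelled from 100 ng, per the labels' protocols. For 45101 probe sets the authors deposited linear intensities from GCRMA (named in the submitters' processing notes, version not stated there). This method subtracts background and normalizes between arrays, so dim values depend on it. GEO's platform annotation gave 34958 probe sets 1 symbol, 932 several and 9211 none, and 34754 of the first matched a RefSeq gene by Entrez ID.

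Intensities were taken to log2. The 22082 probe sets with a mean of at least 4 entered limma 3.58.1 (R 4.3.3), in a model of group alone with a trended eBayes, and p-values were adjusted over all of them by Benjamini-Hochberg. Tests were two-sided. Between any pair of arrays 301 to 451 values were identical, so no array repeats another. On simulated data with 22082 probe sets, 64% of 100 changed by 1 on the log2 scale and 92% of 100 changed by 2 were called. The simulated noise was independent between probe sets and had the within-group spread of each. These shares cover probe sets of every spread and do not apply to the 16 enzymes. The enzymes had a median within-group standard deviation of 0.52, beside 0.17 over all genes tested.

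The genes of the set and all lists were chosen with earlier results of these data known. Genes with every array given are those whose groups did not overlap and the 2 of smallest p in each role group. Other genes with every array given, and Msmo1, were chosen after their values were seen.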

Additional observations from a re-analysis of the deposited data

How the results depend on the processing

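No gene of the set was called by limma under any alternative, the count staying at 0 with adjusted p of at least 0.462 with all 6 arrays and at least 0.581 with single arrays left out. The count of probe sets called over the whole array was 6, and was 1 with eBayes without the trend, 0 with the replicate number as a block and 0 to 4 with single arrays left out, the lowest without control replicate 3. The replicate block cannot change the differences, because each number holds 1 array of each group. It changes only their standard errors, and it called 0 genes of the set. Deviations from the group means correlated across probe sets at -0.59, -0.34 and 0.145 between samples of numbers 1, 2 and 3. With 3 arrays per group these deviations are tied to each other, so the correlations cannot decide whether same-numbered samples are matched. The labels state no pairing by number. Without single arrays the median of the set ranged from -0.18 to 0.16, that of the mevalonate genes from -0.16 to 0.32, of the squalene-to-cholesterol enzymes from -0.39 to 0.18, of the regulators from 0.082 to 0.20 and of the fatty acid genes from -0.046 to 0.096. Of 377 differences of single genes under settings with all arrays, 8 changed sign, and of 174 with an array left out 39 did, none of them called. The 8 came from array weights (3), median centring (1) and the mean over probe sets (4). Many of the 377 could not change. The settings of filter, eBayes, replicate block, 1 test per gene and threshold leave each gene's difference as it is. The 377 is thus no measure of how stable the signs are. With array weights the median of the set was -0.10, and with the mean over probe sets it was -0.065.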
